A study of Mus musculus with 4 samples.

Results

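Cohesin is the ring-shaped protein complex that holds sister chromatids together from S phase to anaphase and that extrudes chromatin loops in interphase. Its Smc1a and Smc3 arms are closed by the kleisin Rad21, and Stag1 or Stag2 binds to the kleisin. Nipbl loads and activates the ring, Wapl opens it and releases it from chromatin, and Pds5a and Pds5b bind Rad21 as scaffolds for Wapl or for its antagonist Cdca5 (sororin). Haspin, the kinase that phosphorylates histone H3 at threonine 3 in mitosis, is known to be recruited to centromeres in part by binding Pds5b, where it can keep Wapl away.

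The genes described here are these 10 cohesin subunits and regulators, taken by symbol from the 55401 genes counted by RNA-seq in E14 mouse embryonic stem cells (mESCs). All 10 were among the 15580 genes with enough counts to test. The question was whether loss of Haspin changed the mRNA level of the cohesin machinery. RNA was sequenced from 2 libraries of unmodified E14 mESCs (WT). Another 2 libraries came from E14 mESCs in which Haspin was disrupted with CRISPR/Cas9 (Haspin-KO). The paper's general culture medium held serum, LIF and 2i. It does not state the medium or any treatment separately for the sequenced cells. For the Haspin-KO lines, E14 mESCs were transfected with a pair of guide RNAs against the Haspin coding sequence and selected with puromycin. Surviving single clones were then picked for absence of H3T3ph. The labels do not say which line each library came from, or whether the replicates of a group were separate cultures, so p-values measure only the spread between these libraries, which may be technical.

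By edgeR's quasi-likelihood test on all 4 libraries without a block, none of the 10 cohesin genes passed the threshold for a change in Haspin-KO. Of the 10, 5 were higher at an unadjusted p under 0.05, beside 10.4% of all tested genes. With the replicate number as a block, edgeR called 6 of the 10 at any fold, beside 22.6% of all tested genes. The labels do not state that the numbers pair the libraries. Another fit, DESeq2 with a local dispersion fit, was added after the data were examined and called 4 of the 10 at any fold. That fit called 1088 of 28670 genes with any count (3.79%). By edgeR the estimates ran from a log2 fold change of -0.13 for Smc1a to 0.29 for Nipbl. The 95% intervals of the 10 fold changes lay within 0.788 and 1.39. Stag1, Stag2, Pds5a, Pds5b, Wapl, Nipbl, Smc3 and Rad21 had positive estimates, whereas Smc1a and Cdca5 had negative ones. The transcripts of the 8 genes with positive estimates had 38.1 to 44.3% GC, against 46.9% for Smc1a and 51.5% for Cdca5. When GC content and length were modelled, a setting added after the data were examined, 7 of these 8 estimates stayed positive but smaller. Stag2 turned to -0.025, Cdca5 turned to 0.059 and Smc1a moved from -0.13 to -0.17. The trend with GC content and the effect of the knockout cannot be told apart in this design.

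Counts per library summed to 21834847 and 17452307 in WT and to 14207828 and 14436750 in Haspin-KO. Each cohesin gene had between 1102 and 8485 counts in every library, so that the counting error of a single value was at most 3.01%. In this comparison edgeR's quasi-likelihood test called 129 of the 15580 genes at an adjusted p under 0.05 and a fold over 2 (0.828%), and 390 genes at any fold (2.5%). Without WT replicate 1 or WT replicate 2 the first count was 60, without Haspin-KO replicate 1 it was 209 and without Haspin-KO replicate 2 it was 266, and the second count was 96, 102, 753 and 878 in that order. Haspin itself (ENSMUSG00000050107, mm10 chr11:73135485-73138294, minus strand) had 40.1 and 35.7 CPM (counts scaled to the library size, normalized by TMM) in WT and 10.4 and 14.6 in Haspin-KO, with a log2 fold change of -1.60 (SE 0.159, adjusted p = 0.00154 by edgeR), so reads on the gene remained in the knockout libraries. Of the embryonic stem cell markers Pou5f1, Nanog, Sox2, Klf4, Esrrb, Zfp42, Tfcp2l1 and Dppa5a, 0 of 8 were called at any fold by edgeR, with 2 lower at an unadjusted p under 0.05. DESeq2 called 1 (Klf4, lower) and DESeq2 with a local dispersion fit 2 (Klf4 and Dppa5a). Limma called 0 of 8, but over all genes it called only 42 on log2(FPKM + 0.1) and 0 on log2(FPKM + 1). The summed level of the 8 markers was 6116 and 6367 CPM in WT and 5802 and 5928 CPM in Haspin-KO. By edgeR the extremes of the list were Klf4 at -0.29 (adjusted p = 0.0604) and Sox2 at 0.085 (adjusted p = 0.710). The mESCs were passaged on mouse fibroblast feeders and kept on gelatin for assays, and which of these the RNA came from is not given in the sources used here. Fibroblast markers were higher in WT, with a summed level over 10 genes of 137 and 107 CPM in WT and 31.3 and 32.7 CPM in Haspin-KO. Of these, 8 could be tested and 6 were called lower at any fold: Col1a1, Col1a2, Col3a1, Pdgfrb, Tagln and Postn. Lum had no count in any library, Dcn had 4 and 2 counts in WT and 0 in both Haspin-KO libraries, and Postn had 171 and 77 counts in WT and 0 in both Haspin-KO libraries. Thy1 and Fbn1 were not called. In such bulk RNA fewer cells of a type and less RNA per cell cannot be told apart, and the part of fibroblast RNA in the cohesin values was not tested.

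**Figure D1:**
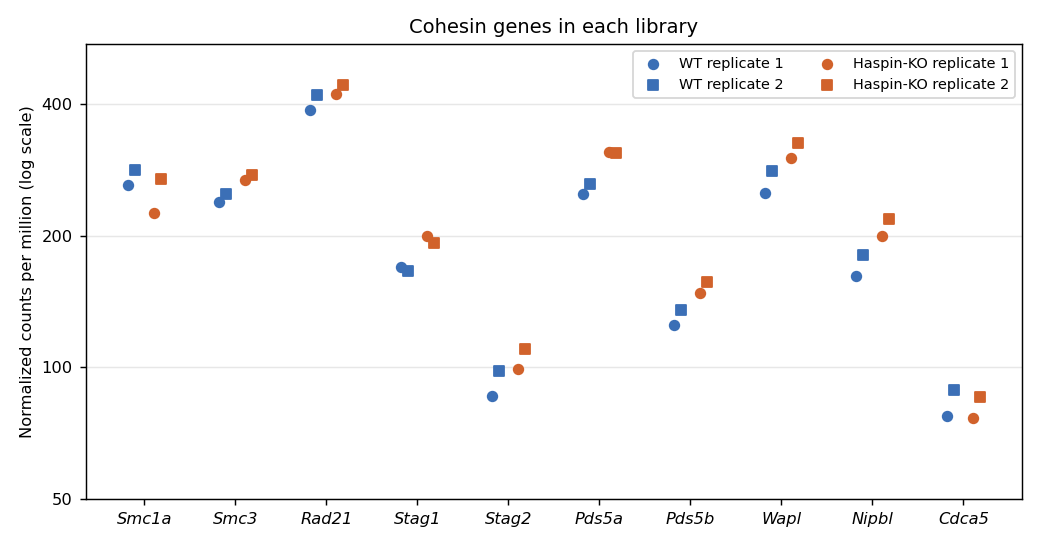
The level of each cohesin gene is plotted for each library, as TMM-normalized CPM on a log axis; blue marks WT and orange marks Haspin-KO, with circles for replicate 1 and squares for replicate 2. Both Haspin-KO libraries lie above both WT libraries for 8 of the 10 genes, and the groups overlap for Smc1a and Cdca5.

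The core ring subunits gave no common direction. Smc1a (ENSMUSG00000041133, mm10 chrX:152016428-152062694, plus strand), an ATPase arm of the ring, had 262 and 283 CPM in WT and 226 and 271 CPM in Haspin-KO. The groups overlapped, and the log2 fold change was -0.13 (SE 0.0933, 95% interval -0.34 to 0.076, adjusted p = 0.449), with a range of -0.27 to -0.0070 when each library was left out. Smc3 (ENSMUSG00000024974, chr19:53600398-53645833, plus strand), the partner arm whose acetylation stabilizes cohesion, had 239.5 and 249.8 CPM in WT and 268 and 275 CPM in Haspin-KO. The Haspin-KO libraries were both higher, by 0.15 on the log2 scale (SE 0.0689, adjusted p = 0.247). Rad21 (ENSMUSG00000022314, chr15:51962240-51991747, minus strand), the kleisin that separase cleaves at anaphase, had 388 and 421 CPM in WT and 423 and 442 CPM in Haspin-KO. Here the highest WT and the lowest Haspin-KO library were almost equal, and the difference was 0.096 on the log2 scale (SE 0.0720, 95% interval -0.066 to 0.26, adjusted p = 0.481), or 0.034 to 0.16 with each library left out.

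Both Stag genes, whose proteins set where cohesin resides on chromatin, had higher values in Haspin-KO without passing the threshold in edgeR without a block. Stag1 (ENSMUSG00000037286, chr9:100597798-100959375, plus strand) had 169.8 and 166 CPM in WT and 200.3 and 192 CPM in Haspin-KO, a log2 fold change of 0.22 (SE 0.0708, adjusted p = 0.121). The replicates of Stag1 lay close together and the groups were apart. Stag2 (ENSMUSG00000025862, chrX:42149317-42277185, plus strand) had 85.9 and 98.2 CPM in WT and 99.0 and 110.3 CPM in Haspin-KO, a log2 fold change of 0.19 (SE 0.0949, adjusted p = 0.298), and WT replicate 2 lay just under Haspin-KO replicate 1. Its estimate ran from 0.087 to 0.29 with each library left out and turned to -0.025 with GC content and length modelled.

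Nipbl, the loader, had the highest estimate of the 10 genes. Nipbl (ENSMUSG00000022141, chr15:8290617-8444463, minus strand) had 162 and 181 CPM in WT and 199.7 and 219 CPM in Haspin-KO, all Haspin-KO values above WT. The log2 fold change was 0.29 (SE 0.0840, 95% interval 0.10 to 0.48, adjusted p = 0.1001). Without Haspin-KO replicate 1 it was 0.36 and passed the threshold at any fold (adjusted p = 0.0298 by edgeR), with the lone Haspin-KO sample assumed to vary like the WT group, and over the 4 libraries left out in turn its adjusted p ranged from 0.0298 to 0.453.

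The release factors and their scaffolds had similar estimates. Wapl (ENSMUSG00000041408, chr14:34673928-34747983, plus strand) had 251 and 282 CPM in WT and 301 and 326 CPM in Haspin-KO, a log2 fold change of 0.24 (SE 0.0808, adjusted p = 0.145). Pds5a (ENSMUSG00000029202, chr5:65605721-65698273, minus strand) had 249.7 and 263 CPM in WT and 311 and 309 CPM in Haspin-KO. The Pds5a replicates of Haspin-KO were nearly equal and both above WT. Its log2 fold change of 0.27 (SE 0.0687) came with the lowest adjusted p of the 10 genes, 0.0697. Pds5b (ENSMUSG00000034021, chr5:150673739-150810690, plus strand), the scaffold that Haspin binds, had 125 and 135 CPM in WT and 148 and 157 CPM in Haspin-KO, a log2 fold change of 0.23 (SE 0.0781, 95% interval 0.050 to 0.40, adjusted p = 0.147). Cdca5 (ENSMUSG00000024791, chr19:6084983-6091777, plus strand), which protects cohesin from Wapl after replication, had 77.4 and 88.9 CPM in WT and 76.7 and 85.4 CPM in Haspin-KO. The Cdca5 groups overlapped, with a log2 fold change of -0.035 (SE 0.0974, 95% interval -0.25 to 0.18, adjusted p = 0.876). Its estimate turned to 0.069 without WT replicate 2, to 0.043 without Haspin-KO replicate 1 and to 0.059 with GC content and length modelled.

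By edgeR on all 4 libraries without a block, 0 of the 10 genes were called at a fold over 2 or at any fold. The backgrounds were 0.828% and 2.5%. At an unadjusted p under 0.05, 5 of 10 were higher and 0 lower, namely Stag1, Pds5a, Pds5b, Wapl and Nipbl, against 10.4% of all tested genes higher at that threshold. Both Haspin-KO libraries lay above both WT libraries for 8 of the 10, against 25.3% of all tested genes. The median log2 fold change of the 10 was 0.20, beside -0.0039 over all tested genes, and ran from 0.13 to 0.25 when each library was left out. At any fold DESeq2 called 0 of the 10, beside 1.65% of 28670 genes with any count. Limma on log2(FPKM + 0.1) also called 0 of the 10, beside 0.283% of 14817 genes. On log2(FPKM + 1) limma called 0 genes in all, so its 0 of 10 says nothing about the members. DESeq2 with a local dispersion fit, added after the data were examined, called Stag1, Pds5a, Wapl and Nipbl at any fold (adjusted p = 0.0413, 0.00210, 0.0435 and 0.0152). That fit called 1088 of 28670 genes with any count (3.79%), a base that includes genes too low for the edgeR filter. Cohesin genes lie on 6 chromosomes, and the medians of all tested genes on these chromosomes were between -0.035 and 0.066 on the log2 scale. Other genes of the table that overlap a cohesin gene had counts of at most 0.349% of that gene's own, the largest share being at Pds5a.

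**Figure D2:**
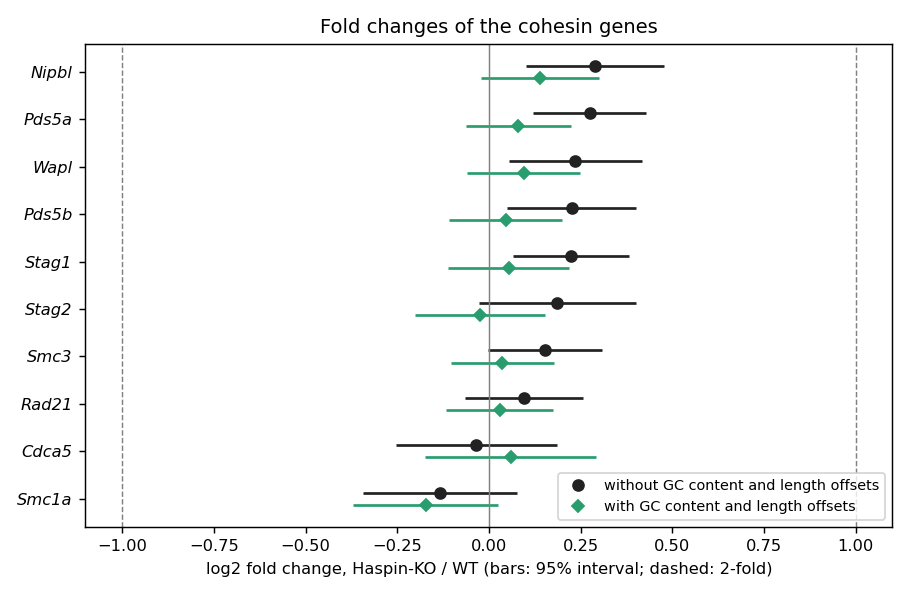
Log2 fold changes of the 10 cohesin genes, Haspin-KO over WT, are plotted as points with 95% intervals as bars, black without and green with offsets for GC content and length; dashed lines mark a fold of 2. All intervals lie inside the dashed lines, and 5 of the black ones and 0 of the green ones lie wholly above 0.

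The members share a base composition. GC content of their transcripts was 38.1 to 51.5%, and 9 of the 10 lay below the median of 49.7% for tested genes, Cdca5 being the exception. All but Cdca5, with 2129 exonic bases, were also longer than the median of 3967.5 bases. Over tested genes the log2 fold change correlated with log2 length at r = 0.066. The offsets below model GC content and length together, and their parts were not separated. Over all tested genes with a GC value the log2 fold change fell with GC content (Pearson's r = -0.216 across 15568 genes, which are not independent replicates), with a median of 0.14 in the lowest GC quartile and -0.13 in the highest. The trend ran along the groups. Levels relative to the mean of all libraries correlated with GC content at r = 0.280 and 0.115 in WT and -0.158 and -0.220 in Haspin-KO. Genes of 40 to 42% GC, the range of Stag1, Pds5b and Wapl, had 0.15 as their median log2 fold change and quartiles of 0.027 and 0.28 (941 genes), beside 0.22, 0.23 and 0.24 for these cohesin genes. For 42 to 44% GC the median was 0.11 and the quartiles were -0.014 and 0.25 (1283 genes). Smc3 at 0.15 lay between these quartiles, but Pds5a at 0.27 and Nipbl at 0.29 lay above them. Smc1a at -0.13 lay below the lower quartile of -0.11 for 46 to 48% GC. Stag2, Rad21 and Cdca5 lay between the quartiles of genes of like GC content. With loess offsets for GC content and length, a setting added after the data were examined, the median of the cohesin genes was 0.050, their lowest adjusted p was 0.376, and 8 of the 10 estimates came to at most 0.5 of their former size. Stag1 went to 0.054, Pds5a to 0.080, Wapl to 0.095 and Nipbl to 0.14, while Smc1a went to -0.17 (95% interval -0.37 to 0.025). A trend with GC content that separates the groups and the effect of the knockout cannot be told apart in this design.

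**Figure D3:**
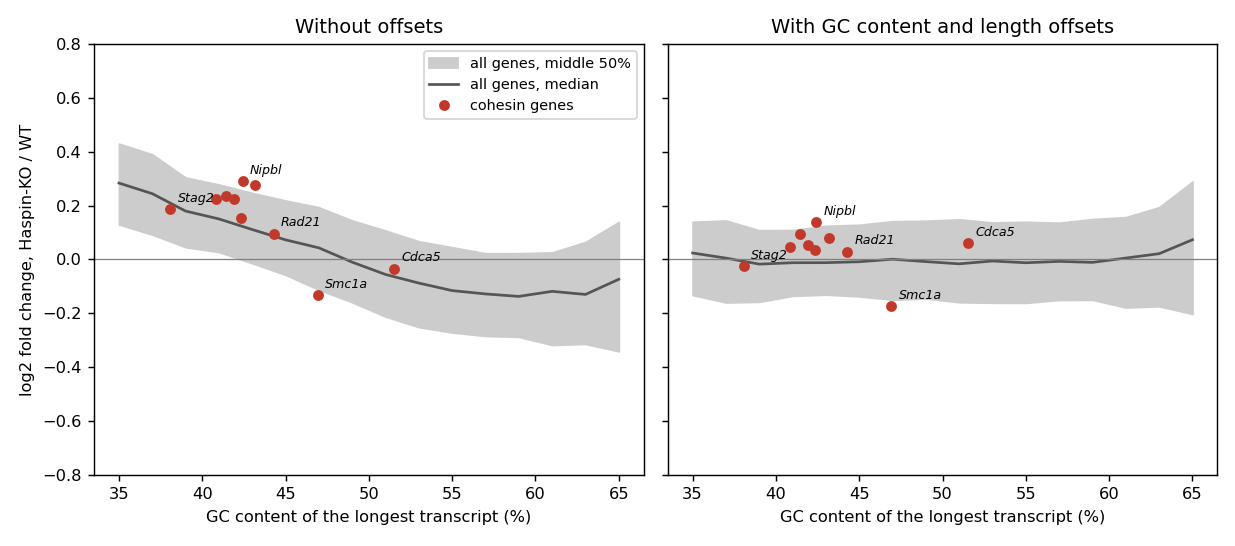
Log2 fold change (Haspin-KO over WT) is plotted against the GC content of the longest transcript, without offsets on the left and with offsets on the right; the line is the median of all tested genes in bins of 2% GC, the grey band the middle 50% and red points the 10 cohesin genes. On the left the median falls as GC rises, and on the right it lies near 0.

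Among genes, levels were compared per length as FPKM. Rad21 was the most abundant, with 95.4 ± 5.01 FPKM in WT (mean ± SD, n = 2) and 102.2 ± 1.63 in Haspin-KO. Smc1a with 47.1 ± 2.35, Smc3 with 44.0 ± 1.09, Wapl with 40.1 ± 3.08 and Cdca5 with 38.9 ± 3.62 FPKM in WT followed, and the WT libraries of Wapl and Cdca5 overlapped. Nipbl was at 18.1 ± 1.35, Stag1 at 14.2 ± 0.276, Pds5a at 13.2 ± 0.417, Pds5b at 13.2 ± 0.658 and Stag2 at 11.1 ± 0.997 FPKM in WT, with Pds5a and Pds5b overlapping. Rad21 thus exceeded 97.2% of tested genes in FPKM over all libraries and Stag2 70.4%. The FPKM values divide by the summed length of all exons, which is 19335 bases for Pds5a against 8934 bases in its longest coding transcript. Per longest coding transcript the WT level of Pds5a was 28.6 and that of Stag1 27.1, above Nipbl at 18.1 and Pds5b at 17.5, so the order among the less abundant genes depends on which length is used.

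Ratios within pairs of genes with related roles were compared over libraries by an exact permutation test, two-sided, whose smallest p with 2 against 2 libraries is 0.333, so that no pair could pass 0.05. The FPKM ratio of Stag1 to Stag2 was 1.39 and 1.19 in WT and 1.42 and 1.22 in Haspin-KO. Replicates of a group differed by more than the groups. The ratio of Pds5a to Pds5b was 1.01 and 0.988 in WT and 1.07 and 1.00 in Haspin-KO, again without separation beyond the replicate spread. The ratio of the releaser Wapl to the loader Nipbl was 2.21 and 2.22 in WT and 2.15 and 2.12 in Haspin-KO, a difference of -0.054 on the log2 scale (exact p = 0.333). Smc1a to Smc3, a pair added after its values were seen, was 1.05 and 1.09 in WT and 0.809 and 0.943 in Haspin-KO, a difference of -0.29 on the log2 scale (exact p = 0.333).

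**Figure D4:**
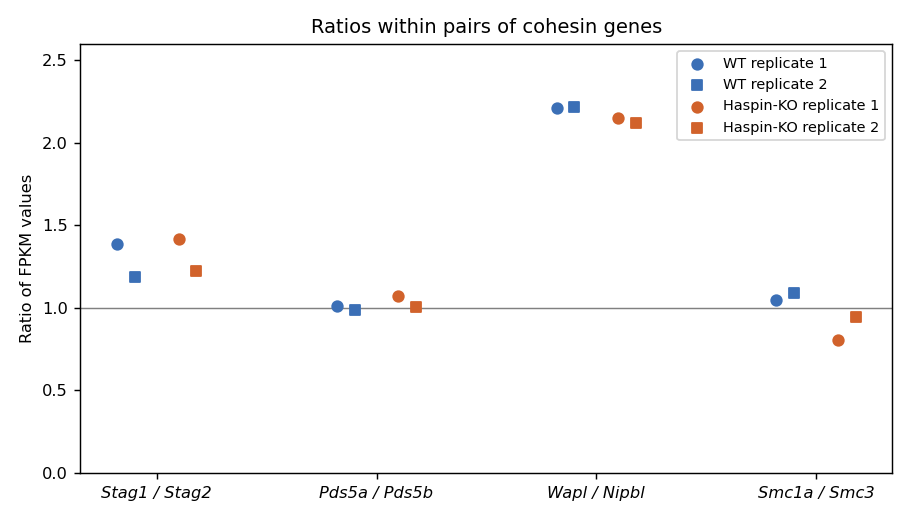
FPKM ratios of 4 pairs of cohesin genes are plotted per library, blue for WT and orange for Haspin-KO, circles for replicate 1 and squares for replicate 2, on an axis from 0. Groups overlap for Stag1 / Stag2 and Pds5a / Pds5b, and are apart for Wapl / Nipbl and Smc1a / Smc3.

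Promoter sequence is given for the members, because genes expressed in G2 and mitosis often carry a cell cycle homology region (CHR, TTTGAA) and a CCAAT box. Of the 10 cohesin genes 7 had an entry in the RefSeq promoters (GRCm38.p6, 250 bases before to 50 after each start). TTTGAA on either strand was found in Pds5b and Cdca5, 2 of 7, beside 18.1% of 27025 RefSeq promoters and 10 of 14 promoters of listed G2/M genes. CCAAT on either strand was found in Pds5b, Stag1, Wapl and Smc1a, beside 37.9% of all promoters and 13 of 14 of the G2/M genes. A GC box (GGGCGG, either strand) was present in 6 of 7, all except Cdca5, beside 35.9% of all promoters and 12 of 14 of the G2/M genes. TATAAA was present in 0 of 7, beside 14.2% and 0 of 14. The 7 promoters had 58.3 to 80.3% GC, beside a median of 52.7% over all promoters. The part of base composition in these motif counts was not tested. The E2F-like TTTCCCGC was present in Stag1 and, 37 bases after the start, in Smc1a (1.11% of all promoters), and TTTGGCGC in Pds5a (0.537%). Each was present in 0 of 14 promoters of the G2/M genes. Shown are windows of 30 bases, plus strand, with the motif in capitals: the CHR of Cdca5 (chr19:6085067-6085096, motifs 17 and 9 bases before the start) and of Pds5b (chr5:150673786-150673815, 32 bases before), and the CCAAT of Stag1 (chr9:100643361-100643390, reverse strand, 78 bases before) and Wapl (chr14:34673788-34673817, 131 bases before). 
Cdca5: gcaaggcgggcaaTTTGAAcgTTTGAAgca
Pds5b: tggcgccatTTTGAAgcggagaggcggagg
Stag1: cggctcgccATTGGccgagcggagcaggag
Wapl: gcggtccgaCCAATggtggtagccggcgcg
These matches describe letters only. The windows of Cdca5, Pds5b and Stag1 lie inside the gene spans of the deposited table, whose first starts are further upstream than those of RefSeq.

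Annotations of the deposited table were read for the members, which were chosen as cohesin genes, so shared terms follow from that choice. The GO term cell division is given for 8 of the 10 (all but Stag2 and Nipbl), among 283 tested genes with it, and the term cohesin complex only for Wapl and Cdca5. KEGG's cell cycle pathway lists Smc1a, Smc3, Rad21, Stag1 and Stag2.

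Around the cohesin genes, 5 further lists of the pathway were examined. By edgeR without a block 0 of their 49 tested genes were called at either rule. At an unadjusted p under 0.05 the lists held 5 higher and 1 lower genes, beside the 10.4% of all tested genes that were higher at that threshold. DESeq2 and limma called 0 of the lists, beside the shares of all genes given above for these fits. Of the 16 cohesin cofactors, which include Ctcf, the acetyltransferases Esco1 and Esco2 and the separase Espl1, 9 had positive and 7 negative estimates, with a median of 0.027. Mau2, the partner of Nipbl, was lowest at -0.19 (SE 0.0876, adjusted p = 0.251), and Hdac8, the Smc3 deacetylase, was highest at 0.49 (SE 0.241, adjusted p = 0.286) at only 3.35 to 6.16 CPM. Nipbl and its partner Mau2 thus had estimates of opposite sign, neither of which passed the threshold in edgeR on all 4 libraries without a block.

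Of the meiotic paralogs, Stag3 was at 8.96 ± 1.68 FPKM in WT (mean ± SD, n = 2), Rec8 at 6.38 ± 0.396 and Smc1b at 0.620 ± 0.0707. Smc1b, the meiotic counterpart of Smc1a, had 59 and 40 counts in WT and 77 and 53 in Haspin-KO, a log2 fold change of 0.85 (SE 0.274, adjusted p = 0.125). Without Haspin-KO replicate 2 it was called, at a log2 fold change of 1.09 (adjusted p = 0.0287 by edgeR), with the lone Haspin-KO sample assumed to vary like the WT group. Rec8, the meiotic kleisin, was at -0.12 (adjusted p = 0.772) and Stag3 at -0.13 (adjusted p = 0.703). Rad21l had 1 and 0 counts in WT and 0 and 3 in Haspin-KO and was not tested.

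Condensin, the SMC complex that compacts mitotic chromosomes, had a median of 0.12 over 8 genes, from Ncaph2 at -0.15 (adjusted p = 0.264) to Smc2 at 0.22 (adjusted p = 0.142), and the median was -0.020 with offsets for GC content and length. The SMC5/6 complex, which acts in DNA repair, had a median of -0.11 over 6 genes, with Nsmce3 lowest at -0.21 (adjusted p = 0.362) and Smc6 highest at 0.18 (adjusted p = 0.214). With the offsets its median was -0.16, and all 6 estimates were below 0, Smc6 at -0.016. For the 16 G2/M genes the median was 0.029, from Ccnb2, a B-type cyclin, at -0.21 (adjusted p = 0.197) to Cenpf, a kinetochore protein, at 0.14 (adjusted p = 0.332). All adjusted p in these lists are from edgeR over all tested genes.

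**Figure D5:**
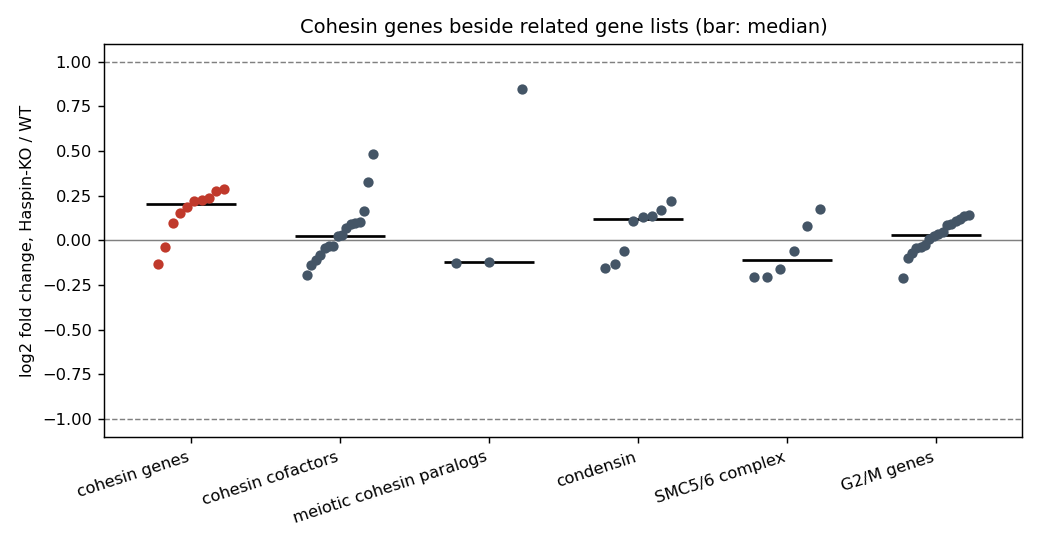
Each point is the log2 fold change (Haspin-KO over WT) of a gene, red for the 10 cohesin genes and grey for the related lists, with the median as a bar and a fold of 2 as dashed lines. The cohesin genes have a median of 0.20, and all points of all lists lie between the dashed lines.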

How the data were processed

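RNA-seq of 4 libraries was analysed. The authors trimmed reads with Cutadapt (1.9.1), mapped them to mm10 with HISAT2 (2.0.1) and, per the submitters' processing notes, used HTSeq (0.6.1). Strandedness, multi-mapped reads and the gene annotation used in counting are not given in the sources used here. The authors deposited raw counts per gene, without normalization, and FPKM values, which are the counts divided by exonic length and library total. No column of fold changes or p-values of theirs was used.

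Haspin-KO was compared with WT with edgeR (4.0.16, R 4.3.3) on the counts, after filterByExpr and TMM normalization, by the quasi-likelihood test without a block and Benjamini-Hochberg adjustment over all tested genes. A gene was called at an adjusted p under 0.05 and a fold over 2, or at any fold where stated. SE is the log2 fold change over the square root of F. DESeq2 (1.42.0), limma (3.58.1) on log2(FPKM + 0.1) and (FPKM + 1), other normalizations and filters, thinning and leaving out libraries were alternatives. Offsets for GC content and length (loess, span 0.3) used GRCm38 transcripts for 99.9% of tested genes. The scripts were tested on simulated data. The members and lists were chosen with earlier results of these data known. Named were Haspin, all 10 members, all meiotic paralogs, and from every other list the called genes and both extremes. Esco1, Esco2, Ctcf and Espl1 are mentioned only as list members.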

Additional observations from a re-analysis of the deposited data

How the results depend on the processing

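The sign and side of the threshold of the log2 fold changes of the 10 cohesin genes held in 142 of 160 combinations of gene and alternative, 12 passed the threshold and 6 turned. With the replicate number as a block, edgeR called 407 genes, and 3514 at any fold (22.6% of tested genes). It called 6 of the 10 cohesin genes at any fold (Stag1, Stag2, Pds5a, Pds5b, Wapl and Nipbl) and 8 genes of the 5 other lists. At an unadjusted p under 0.05 it held 8 of the 10. The share of all genes at that threshold is given for the main fit only, so such counts in other fits stand without a background. Replicate differences of WT and Haspin-KO correlated at r = 0.289 across genes. The numbers are not stated to pair the libraries, so the calls gained with the block are not read as stronger effects, and the cause was not tested. Offsets for GC content and length gave a median of the cohesin genes of 0.050 with 0 at an unadjusted p under 0.05, turned Stag2 to -0.025 and Cdca5 to 0.059, and moved the cofactor median to 0.0064 and that of condensin to -0.020. The offsets with the replicate block gave 338 genes, 2523 at any fold (16.2% of tested genes), 1 cohesin gene (Smc1a, -0.18, adjusted p = 0.0145), 2 at an unadjusted p under 0.05, a cohesin median of 0.050, Stag2 at -0.027, Cdca5 at 0.060, 9 genes of the other lists, a cofactor median of 0.0042 and a condensin median of -0.021. Without a filter, 265 genes and 1172 at any fold were called, with a cofactor median of -0.0012 and a condensin median of 0.093. Limma on log2(FPKM + 0.1) called 42 genes, 42 at any fold, with 1 cohesin gene at an unadjusted p under 0.05, and on log2(FPKM + 1) 0 genes and 0 at any fold. Combinations with the latter setting could thus differ in sign only, since no gene passed the threshold there. DESeq2 with a local dispersion fit called 1088 of 28670 genes with any count at any fold (3.79%), 4 of them cohesin genes, and 1 of the other lists. The cause of these moves was not tested.

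Leaving out each library gave 60 to 266 genes called, 96 to 878 at any fold, 0 to 1 cohesin gene at any fold, 2 to 5 at an unadjusted p under 0.05 and a cohesin median of 0.13 to 0.25. Cdca5 turned to 0.069 and 0.043 in 2 of these. The other lists held 0 to 1 call, with medians of 0.022 to 0.059 for cofactors, -0.19 to 0.17 for meiotic paralogs, 0.055 to 0.14 for condensin, -0.14 to -0.035 for SMC5/6 and -0.024 to 0.057 for G2/M genes. Pair differences were -0.075 to 0.15 for Stag1 to Stag2, 0.0046 to 0.095 for Pds5a to Pds5b, -0.064 to -0.044 for Wapl to Nipbl and -0.40 to -0.18 for Smc1a to Smc3. With 2 libraries a group, the 95% intervals of the cohesin genes in the main fit allow folds from 0.788 to 1.39. With offsets for GC content and length the intervals ran from -0.37 to 0.30 on the log2 scale.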
